A study of Mus musculus with 2 samples.

Results

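The 60 genes described here encode the Wnt ligands, their receptors, the secreted Wnt antagonists, the R-spondins with their receptors, and the cytoplasmic and nuclear proteins that pass the signal on. They were chosen by gene symbol, and 59 of them were measured by a probe set with exactly 1 symbol, out of 19938 genes with such a probe set. The remaining gene, *Tcf7*, was not analysed here. The samples are whole pancreas of E15.5 mouse embryos on an ICR background, measured on Affymetrix gene arrays, 1 for wild-type (WT) and 1 for *Mafk*-Tg embryos. The transgenic embryos carry a FLAG-tagged *Mafk* cDNA under the rat insulin I promoter, which drives it in β cells, a small part of the organ at this stage. The study names 3 pancreata per genotype but not whether their RNA was pooled on the array. It also speaks of technical replicates for the arrays, set against individual biological samples for its quantitative RT-PCR. A single array per genotype gives no replicate error, so no test was run on any value below.

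Wnt proteins are secreted lipid-modified ligands. In the canonical pathway they join a Frizzled receptor to the co-receptor LRP5 or LRP6, which stops the degradation of β-catenin and lets it act in the nucleus with TCF/LEF factors. Secreted frizzled-related proteins and WIF1 bind the ligands, whereas Dickkopf proteins, sclerostin and SOSTDC1 bind LRP5/6. R-spondins, acting through LGR4, LGR5 and LGR6, protect Frizzled from removal by the ubiquitin ligases ZNRF3 and RNF43. In the developing pancreas Wnt signalling acts on the growth of the epithelium and comes in large part from the surrounding mesenchyme.

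Values are on the log2 scale, and a difference is always *Mafk*-Tg minus WT. *Mafk* itself had 6.75 in WT and 7.0 in *Mafk*-Tg, or a difference of 0.25. *Xist*, the RNA of the inactive X chromosome, had 4.40 and 11.30, and Y-linked genes were lower in *Mafk*-Tg, so the sex of the embryos and the genotype cannot be told apart. All 60 members are autosomal. In RNA of a whole organ, fewer cells of a type and less RNA per cell cannot be told apart either. The median over all probe sets of their mean level, 6.0, is called the array median below, and genes at or above it the brighter genes.

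*Sostdc1* had the largest difference of all measured members. It had 6.71 in WT and 7.49 in *Mafk*-Tg on the log2 scale, a difference of 0.79, or 1.73-fold higher in *Mafk*-Tg. *Sfrp2* was 1.31-fold higher, *Frzb* and *Sfrp5* were lower, and the differences of the remaining 8 antagonists were within 1.2-fold. Of the 11412 brighter genes, 7 had a larger increase than *Sostdc1*. *Sostdc1* also stands in the list of higher genes that the study printed from the same arrays, so its value here is not independent evidence.

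**Figure D1:**
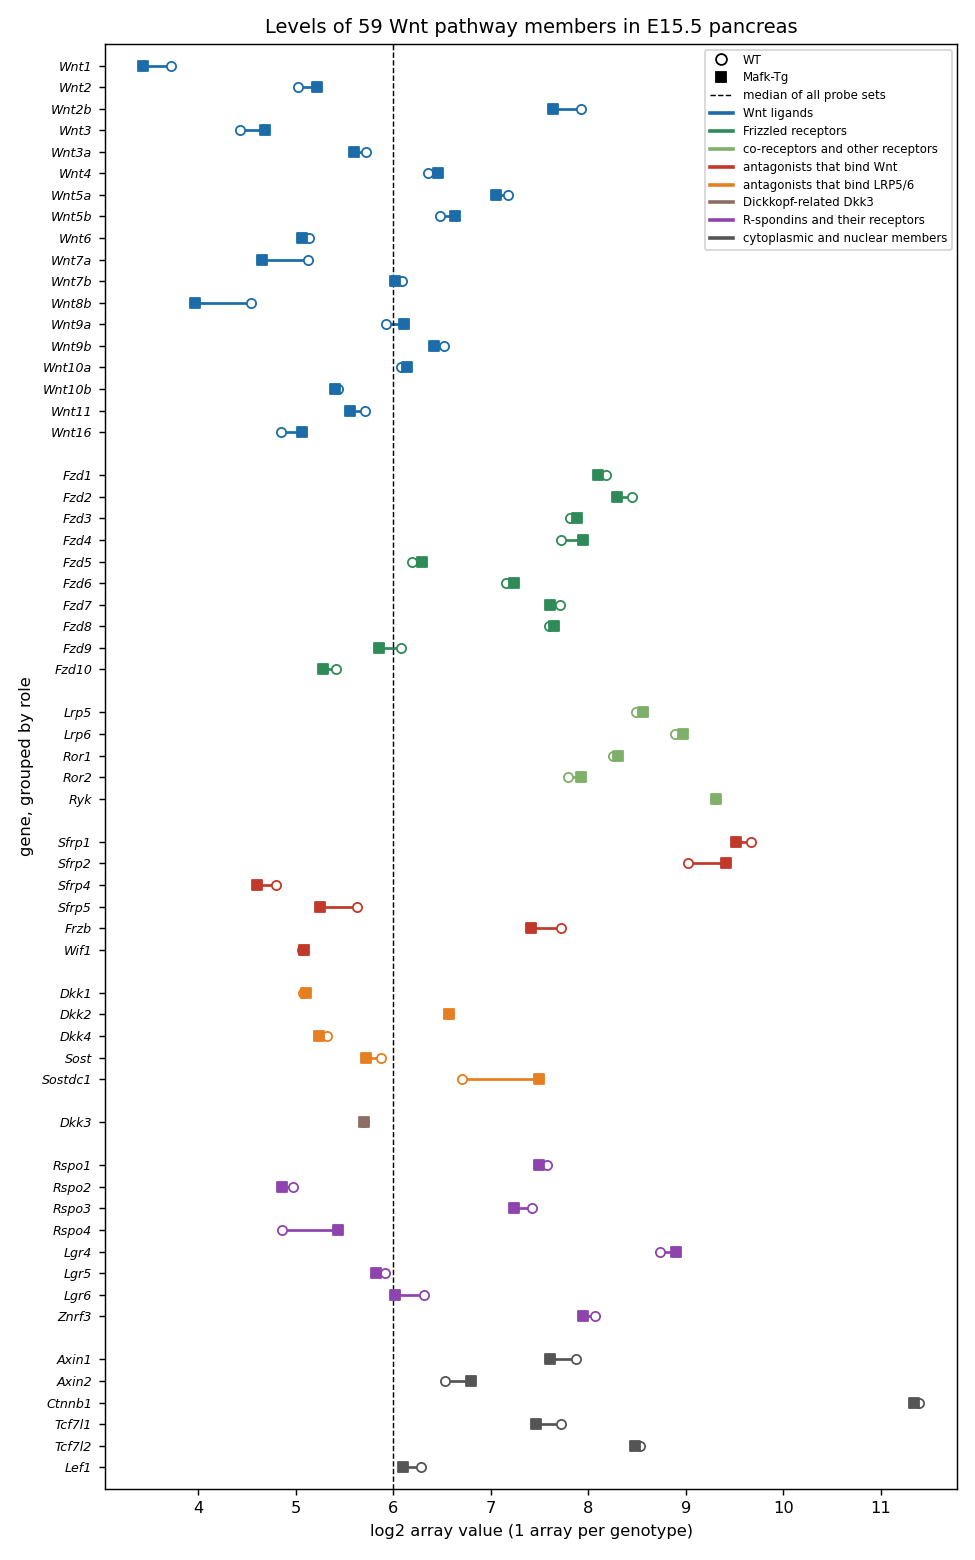
Log2 array value of each of 59 measured members (rows, grouped by role) in WT (open circles, 1 array) and *Mafk*-Tg (squares, 1 array), and the array median (dashed line). *Sostdc1* has 6.71 and 7.49, and most other pairs of symbols lie close together.

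The cutoff used by the study, 1.2-fold or 0.26 on the log2 scale, was passed by 12 of the 59 members. In *Mafk*-Tg, 4 members were higher (*Sostdc1*, *Rspo4*, *Sfrp2* and *Axin2*), or 6.78%, beside 7.96% of all 19938 genes. A further 8 were lower (*Wnt8b*, *Wnt7a*, *Sfrp5*, *Frzb*, *Lgr6*, *Wnt2b*, *Wnt1* and *Axin1*), or 13.6%, beside 10.5% of all genes. The study's own list at this cutoff holds fewer probe sets in each direction than the genes counted here. The share of genes past the cutoff was higher below the array median, so the counts were also taken over the brighter members. There, 3 of 37 members were higher, against 5.58% of all such genes, and 4 of 37 were lower, against 5.87%. These counts amount to 8.11% and 10.8% of the 37, both above the background, and rest on 3 and 4 genes. *Axin2* among the higher and *Axin1* among the lower lie next to the cutoff. Another scaling of the arrays, given below, left neither past it. The median difference of the 59 members was -0.07 and that of all genes -0.01. In the 37 brighter members the median was 0.00. The description below turns on single members.

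**Figure D2:**
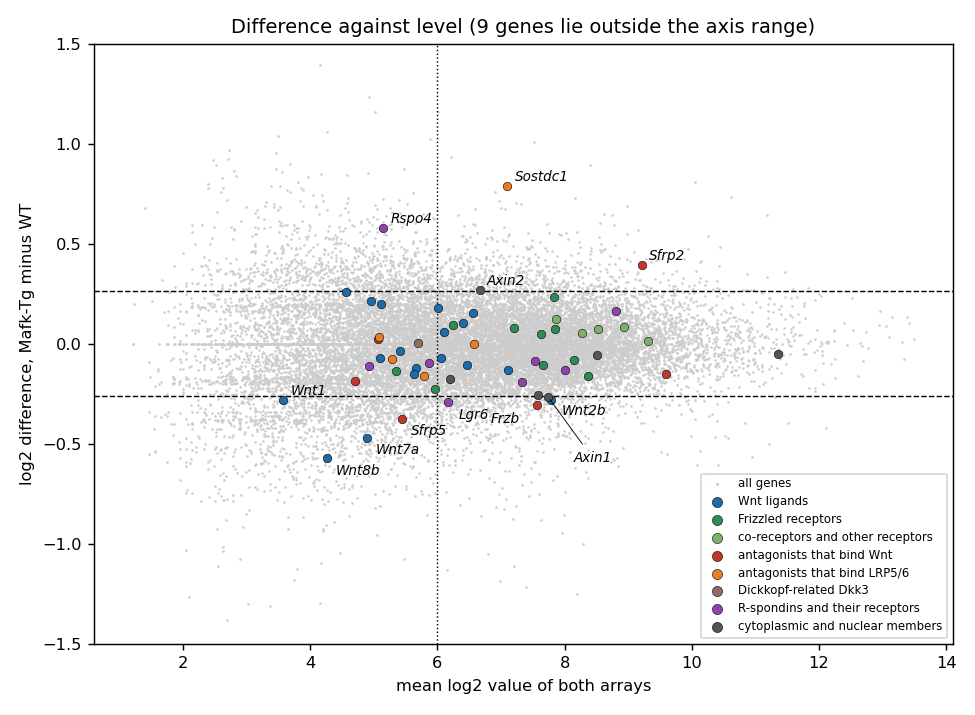
Log2 difference, *Mafk*-Tg minus WT, against the mean log2 value of both arrays for all genes (grey) and the measured members (coloured by role), with dashed lines at 1.2-fold and a dotted line at the array median. *Sostdc1* at 0.79 and *Sfrp2* at 0.39 lie away from genes of their level, and 9 genes fall outside the plotted range.

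RefSeq promoter windows of 300 bases in GRCm38.p6 were at hand for 41 of the 60 genes. *Sostdc1* is not among them. The windows of the 3 other antagonists that passed 1.2-fold are shown because all are antagonists that bind Wnt while their differences run in opposite directions. They lie at chr3:83766071-83766370 (plus strand) for *Sfrp2*, chr2:80447347-80447646 (minus strand) for *Frzb* and chr19:42202203-42202502 (minus strand) for *Sfrp5*, and run 5′ to 3′ across the transcription start. Capitals mark matches to TGCTGA, the core of one side of the MAF recognition element, or to the TCF/LEF motifs CTTTGAT and CTTTGTT, each searched on both strands.
Sfrp2: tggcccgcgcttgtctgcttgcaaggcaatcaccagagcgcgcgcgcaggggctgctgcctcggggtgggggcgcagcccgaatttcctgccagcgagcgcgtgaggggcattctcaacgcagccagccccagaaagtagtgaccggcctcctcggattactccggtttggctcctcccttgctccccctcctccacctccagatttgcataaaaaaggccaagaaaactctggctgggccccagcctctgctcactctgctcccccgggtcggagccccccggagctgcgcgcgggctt
Frzb: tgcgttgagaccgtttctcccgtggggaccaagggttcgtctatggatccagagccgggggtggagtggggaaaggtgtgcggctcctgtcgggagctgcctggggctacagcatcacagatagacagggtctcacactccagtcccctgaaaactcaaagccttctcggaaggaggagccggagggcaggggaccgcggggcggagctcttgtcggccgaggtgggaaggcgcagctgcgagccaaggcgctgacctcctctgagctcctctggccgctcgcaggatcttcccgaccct
Sfrp5: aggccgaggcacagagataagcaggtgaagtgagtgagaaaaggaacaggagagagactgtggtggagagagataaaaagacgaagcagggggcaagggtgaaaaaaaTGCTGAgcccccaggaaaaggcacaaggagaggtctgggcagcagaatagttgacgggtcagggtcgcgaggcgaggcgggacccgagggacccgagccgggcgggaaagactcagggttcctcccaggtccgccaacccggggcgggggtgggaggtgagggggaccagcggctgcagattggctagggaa

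The *Sfrp5* window holds 1 match to TGCTGA, while those of *Sfrp2* and *Frzb* hold no match to any of these motifs. Of the 41 genes with a window, 4 (*Lef1*, *Sfrp5*, *Wnt16* and *Wnt9b*) had TGCTGA, or 9.76%, beside 21.7% of all 27025 genes with a window. CTTTGAT was found for *Wnt5b* and *Wnt11*, 4.88% beside 4.29% of all genes. CTTTGTT was found for *Dkk1*, *Fzd7*, *Tcf7l2* and *Wnt3*, 9.76% beside 6.68%. A match describes the letters of these windows and is not a bound site.

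Among the 18 Wnt ligand genes, 0 were higher and 4 (22.2%) were lower by at least 1.2-fold, with a median difference of -0.07. Of all genes, 7.96% were higher and 10.5% lower, and of genes below the array median 11.1% and 16.6%. These shares are the background for the counts of each list below. *Wnt2b*, a ligand gene of foregut mesenchyme, was the only one of the 4 above the array median, with 7.92 in WT and 7.64 in *Mafk*-Tg, or a difference of -0.28. *Wnt8b*, a forebrain gene, had 4.54 and 3.97, a difference of -0.57. *Wnt7a*, which patterns the dorsal limb, had 5.12 and 4.65, a difference of -0.47. *Wnt1*, a midbrain organizer gene, had 3.72 and 3.44, a difference of -0.28. The last 3 lay below the array median in both arrays, where differences scatter more, with a robust SD of 0.24 over all such genes against 0.15 over the brighter genes.

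*Wnt5a*, which signals through ROR2 and is made by mesenchyme, had 7.18 in WT and 7.05 in *Mafk*-Tg, or a difference of -0.13. *Wnt7b*, a ligand of epithelia, had 6.09 and 6.02, a difference of -0.07. *Wnt11*, a non-canonical ligand, had 5.71 and 5.56, a difference of -0.15, below the array median. All 3 lay under 1.2-fold. *Wnt4*, known from kidney and gonad, is the only member with 2 probe sets. They had differences of 0.00 and 0.22, and the gene value is 0.11. *Wnt5b* and *Wnt9a* had 0.15 and 0.18.

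The other ligand genes had differences between -0.12 and 0.26. *Wnt3*, a gastrulation gene below the array median, had 4.43 in WT and 4.69 in *Mafk*-Tg. Its difference of 0.26 lay just under the cutoff. *Wnt16*, known from bone, had 0.22 and *Wnt2*, known from lung, 0.20, both below the array median. *Wnt10a* had 0.06, *Wnt10b* -0.03, *Wnt6* -0.07, *Wnt9b* -0.11 and *Wnt3a* -0.12. Of these, *Wnt10b*, *Wnt6* and *Wnt3a* lay below the array median. Some Wnt genes lie in pairs in the mouse genome, and 4 pairs of members were next to each other among protein-coding genes of the RefSeq table. *Wnt3a* and *Wnt9a* on chromosome 11 had differences of opposite sign, -0.12 and 0.18, as did *Wnt9b* and *Wnt3* on the same chromosome with -0.11 and 0.26. *Wnt6* and *Wnt10a* on chromosome 1 had -0.07 and 0.06, and *Wnt10b* and *Wnt1* on chromosome 15 had -0.03 and -0.28.

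No receptor gene for Wnt ligands passed the cutoff. Of the 10 Frizzled genes 0 passed 1.2-fold in either direction, and their median difference was -0.01. The highest was *Fzd4*, which also binds norrin, with 7.71 in WT and 7.95 in *Mafk*-Tg, or a difference of 0.23. The lowest was *Fzd9*, with 6.08 and 5.85, a difference of -0.23. The other 8 ranged from -0.16 for *Fzd2* to 0.09 for *Fzd5*. *Fzd10* had -0.14, *Fzd7* -0.11, *Fzd1* -0.08, *Fzd8* 0.05, and *Fzd3* and *Fzd6* both 0.08. Of the 10, *Fzd9*, by its mean level, and *Fzd10* lay below the array median.

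All 5 co-receptor and other receptor genes had a difference above 0, as did 5400 of the 11412 brighter genes, and all 5 were within the cutoff. *Lrp5* and *Lrp6*, which encode the co-receptors that SOSTDC1 binds, had differences of 0.07 and 0.09 from WT log2 values of 8.49 and 8.89. *Ror2*, the receptor gene for WNT5A, had 0.13, its relative *Ror1* 0.05, and *Ryk*, an atypical kinase receptor gene, 0.01. *Lrp4*, a further receptor of sclerostin and SOSTDC1, had 7.29 in WT and 7.18 in *Mafk*-Tg, or a difference of -0.11. The receptor genes for SOSTDC1 differed by less than 1.2-fold while the gene of the antagonist was 1.73-fold higher.

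Among the 12 secreted antagonist genes, differences ran from -0.38 to 0.79. Of these, 2 were higher and 2 lower, 16.7% each, beside 7.96% and 10.5% of all genes. The median was -0.04, or -0.07 without *Sostdc1*. Among genes whose proteins bind the ligands, *Sfrp2* had 9.02 in WT and 9.41 in *Mafk*-Tg, or a difference of 0.39, and 171 of the 11412 brighter genes had a larger increase. *Frzb*, which encodes a secreted frizzled-related protein first known from cartilage, had 7.72 and 7.42, a difference of -0.31, and 443 of the 11412 were lower by more. *Sfrp5*, a gene of early foregut endoderm, had 5.62 and 5.25, a difference of -0.38, below the array median. *Sfrp1*, with 9.66 in WT, had -0.15. *Sfrp4* had -0.19 and *Wif1* 0.02, both below the array median. Secreted frizzled-related genes thus lay on both sides of the cutoff.

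Among genes whose proteins bind LRP5/6, *Sostdc1* alone passed 1.2-fold. *Sost*, which encodes sclerostin of bone and is the closest relative of *Sostdc1*, had 5.88 in WT and 5.72 in *Mafk*-Tg, or a difference of -0.16, below the array median in both arrays. *Dkk2* had 6.57 in both, a difference of 0.00. *Dkk1*, the founding Dickkopf gene, had a difference of 0.03 and *Dkk4* one of -0.07, both below the array median. *Dkk3*, a divergent Dickkopf gene whose product does not act on LRP5/6 in the same way, had 0.00 below the array median. Of this role, *Dkk2* is the other brighter gene, and the contrast with *Sostdc1* rests on it. Its value is identical in both arrays, which also occurs elsewhere. Of the 11412 brighter genes, 5400 had a difference above 0, 5866 one below 0, and the rest exactly 0. Whether such ties are equal amounts of RNA or come from the summary of the arrays was not tested.

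**Figure D3:**
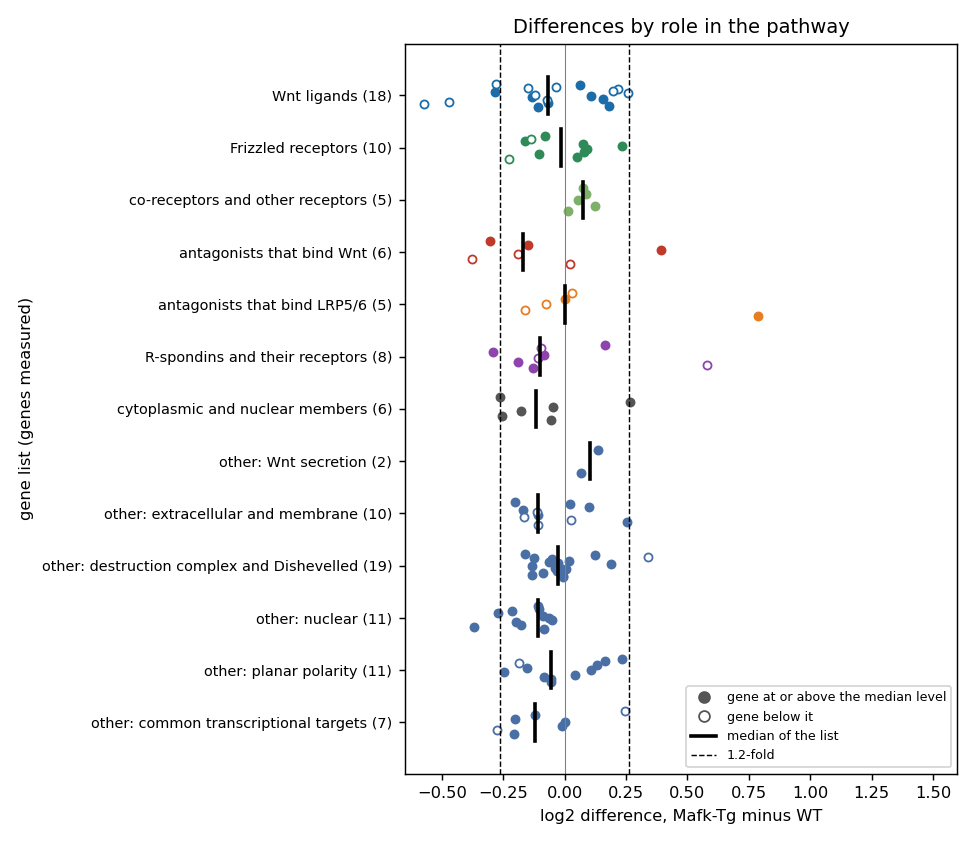
Points give the log2 difference of each gene (*Mafk*-Tg minus WT), filled for brighter genes and open for those below the array median, by role, with list medians as black bars and dashed lines at 1.2-fold. The rows marked other are pathway genes outside the 60. *Sostdc1* at 0.79 lies far from the median of 0.00 of the antagonists that bind LRP5/6, which is the value of *Dkk2*.

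R-spondin genes and their receptors had a median difference of -0.10, with 1 of 8 higher and 1 lower. That is 12.5% each, beside 7.96% and 10.5% of all genes. *Rspo4*, an R-spondin gene of nail development, had 4.85 in WT and 5.43 in *Mafk*-Tg, or a difference of 0.58, but both values lay below the array median. *Lgr6*, a receptor gene known from skin stem cells, had 6.31 and 6.02, a difference of -0.29. *Lgr4*, the more broadly expressed relative, had 8.73 and 8.89, a difference of 0.16, and *Lgr5*, the intestinal stem cell gene, had -0.09 below the array median. The receptor genes thus did not share a direction. *Rspo3* had -0.19, *Rspo1* -0.08 and *Rspo2*, below the array median, -0.11. *Znrf3*, a ligase gene that is itself induced by Wnt signalling, had 8.07 and 7.94, a difference of -0.13, while its partner *Rnf43* had 6.81 and 7.06, a difference of 0.25. Both were within 1.2-fold.

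Among the 6 cytoplasmic and nuclear members, the 2 Axin genes were the ones past the cutoff, in opposite directions. *Axin2*, a widely used target gene of the canonical pathway, had 6.53 in WT and 6.80 in *Mafk*-Tg, or a difference of 0.27. *Axin1*, the scaffold gene of the β-catenin destruction complex, had 7.87 and 7.60, a difference of -0.26. Both lay so near 1.2-fold that quantile normalization, which gives both arrays the same distribution, left neither past it. *Tcf7l1*, which encodes a TCF factor that mainly represses, had 7.71 and 7.46, a difference of -0.26, just inside the cutoff. *Ctnnb1*, the gene of β-catenin, had 11.39 and 11.34, a difference of -0.05. *Tcf7l2*, a diabetes risk gene in humans, also had -0.05, and *Lef1* had -0.18.

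Among 60 measured genes of the pathway outside the members, of 63 listed, 1 was at least 1.2-fold higher and 3 were lower, 1.67% and 5.0%, with a median of -0.06. Among the 52 brighter ones, 0 were higher, beside 5.58% of all brighter genes, and 2 were lower, or 3.85%, beside 5.87%. *Tle4*, a Groucho co-repressor gene, had 7.18 in WT and 6.81 in *Mafk*-Tg, or a difference of -0.37. *Ctnnbip1*, whose product blocks the binding of β-catenin to TCF factors, had 7.0 and 6.73, a difference of -0.27. All 11 nuclear genes of this list had a difference below 0, with a median of -0.11, and 9 were within 1.2-fold. Below 0 were also 37 of the 52 brighter genes of the whole list, and 5866 of all 11412 brighter genes. *Apc2*, an APC relative of neurons, was higher by 0.34 and *Sp5*, a target gene, had -0.27, both below the array median.

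Of the brighter target and feedback genes other than *Axin2*, none named here passed the cutoff. *Nkd1* had 7.94 in WT and 7.85 in *Mafk*-Tg, or a difference of -0.09. *Notum*, which encodes an enzyme that strips the lipid from Wnt proteins, had 0.03 below the array median. *Ccnd1* and *Myc*, growth genes with many inputs, had -0.12 and -0.01. The 7 target genes measured had a median of -0.12. The destruction complex and Dishevelled genes had a median of -0.03 over 19 genes and the planar polarity genes -0.05 over 11. The extracellular and membrane genes had -0.11 over 10, and the Wnt secretion genes *Porcn* and *Wls* had 0.14 and 0.07.

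Marker genes of several cell types also differed between the arrays. All measured markers of pancreatic epithelium, acinar and endocrine cells were brighter genes, among them *Pdx1*, *Ptf1a* and *Gcg*. Endocrine markers were higher for 7 of 12 genes and lower for *Chga* and *Ins2*, with a median of 0.27 and linear values that sum to 7355 for WT and 8568 for *Mafk*-Tg. Acinar markers were higher for 2 of 10, *Bhlha15* and *Cela3b*, with a median of 0.22 and sums of 38565 and 41535, and epithelial and progenitor markers for 2 of 11, *Pdx1* and *Muc1*, with a median of 0.14 and sums of 7780 and 8684. Markers of mesenchyme, from which much of the Wnt supply comes, were lower for 1 of 12, *Pdgfrb* at -0.35, with a median of -0.11 and sums of 15649 and 14466. The part of cell composition in these differences was not tested.

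**Figure D4:**
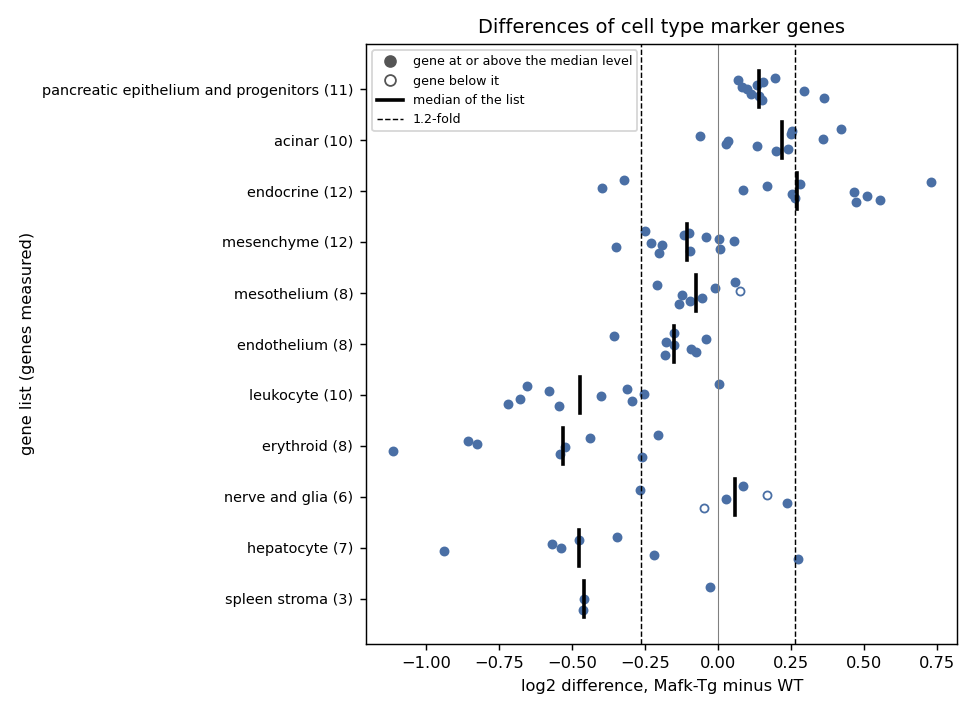
Points give the log2 difference of cell type marker genes (*Mafk*-Tg minus WT), filled for brighter genes and open for those below the array median, with list medians as black bars and dashed lines at 1.2-fold. Endocrine markers have the highest median at 0.27 and erythroid markers the lowest at -0.53.

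Most markers of blood and of neighbouring organs were lower in *Mafk*-Tg. Leukocyte markers were lower for 8 of 10 genes, with a median of -0.47 and sums of 3622 and 2482, and erythroid markers for 6 of 8, with a median of -0.53 and sums of 2574 and 1783. Hepatocyte markers were lower for 5 of 7 (*Alb*, *Apob*, *Afp*, *Ahsg* and *Apoa2*) and higher for *Ttr*, which endocrine cells also express, with a median of -0.47 and sums of 4569 and 3810. Of 3 spleen stroma markers, *Tlx1* and *Nkx2-5* were lower. Mesothelium markers had a median of -0.07 with 0 of 8 past the cutoff, endothelium markers -0.15 with 1 of 8 lower (*Cldn5*), and nerve and glia markers 0.06 with 1 of 6 lower (*Ngfr*). Their part in the members' differences was not tested.

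Another scaling of the arrays moved no member by more than 0.003 with equal medians, 0.034 with quantile normalization or 0.037 with loess. Moves this small could not undo the larger differences, so the scalings check only members next to the cutoff. *Sostdc1*, *Sfrp2*, *Rspo4*, *Frzb*, *Sfrp5*, *Lgr6*, *Wnt2b*, *Wnt7a* and *Wnt8b* passed 1.2-fold with equal medians, quantile normalization and loess correction. *Axin1* and *Wnt1* did not pass after quantile normalization or the loess, *Axin2* did not after quantile normalization, and *Wnt3* passed after both. At 1.5-fold, *Sostdc1* was the single member left.

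**Figure D5:**
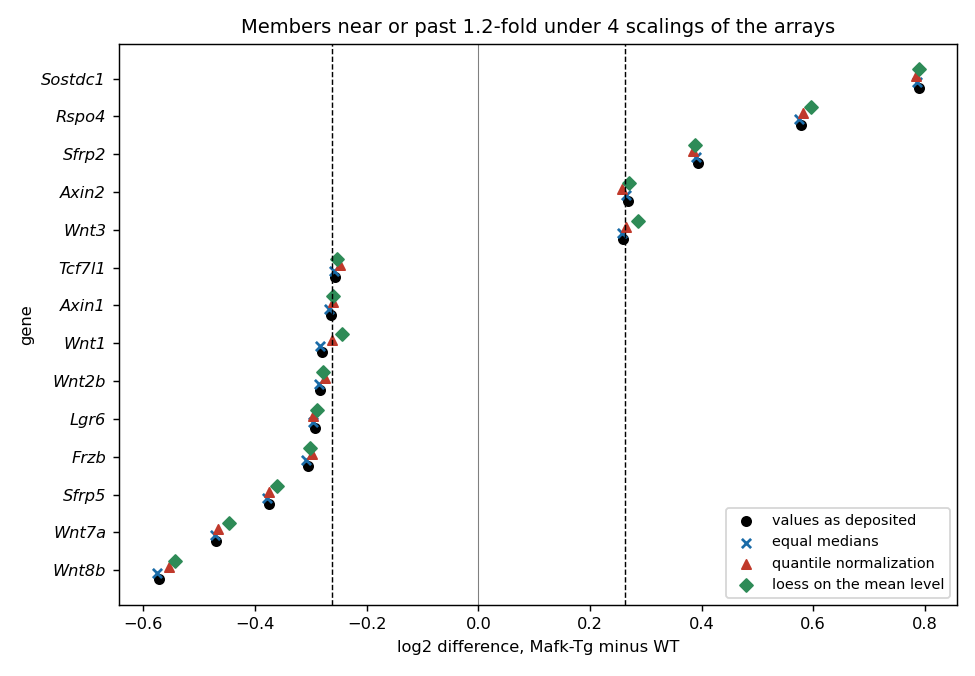
Log2 difference, *Mafk*-Tg minus WT, of the 12 members past 1.2-fold and of *Wnt3* and *Tcf7l1*, which lie next to the cutoff, under 4 scalings of the arrays, with dashed lines at 1.2-fold. The symbols of *Sostdc1* nearly coincide at 0.79 and those of *Axin1* straddle the line at -0.26.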

How the data were processed

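RNA of whole E15.5 pancreas was hybridised to Affymetrix MoGene-1_0-st-v1 arrays, of which 1 WT and 1 *Mafk*-Tg array were analysed. Normalization and summary to probe sets were done by the authors with Expression Console of Affymetrix. Its settings and version were not given in the sources used here. Deposited log2 values run from 0.51 to 14.01, with medians of 6.01 in both arrays, and no scaling was added. Depth has no meaning for arrays, and their number limits the precision.

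Of 35556 probe sets, 21789 have 1 gene symbol in the platform's table, 1621 several and 12146 are unnamed here. Those with 1 symbol were averaged per gene. The difference is the *Mafk*-Tg minus the WT value, counted at 1.2-fold. The members and the lists of pathway and marker genes were chosen with earlier results of these data known. Named by rule were members past the cutoff, *Sostdc1*, *Lrp5*, *Lrp6* and all other secreted antagonists, the highest and lowest member of each role, members whose probe sets disagree past the cutoff, other pathway genes past the cutoff at or above the array median, and *Lrp4*, *Rnf43*, *Nkd1*, *Notum* and *Sp5*. Further members were named to give their values. *Apc2*, *Ccnd1*, *Myc*, *Porcn*, *Wls* and the marker genes fall outside the rule and were chosen after their values were seen. RefSeq tables of GRCm38.p6 gave chromosomes, gene order and promoter windows. In simulated data of 19938 genes, 100% of genes raised by 1 on the log2 scale passed the cutoff. No member differed by as much as 1, the largest difference being 0.79, so this share does not tell how often smaller differences would pass. Of unchanged genes, 8.18% passed it upward and 8.55% downward. The simulated scatter was set to the spread of the observed differences at each level, so these shares are not a measured error rate. Alternatives were equal medians, quantile normalization, loess with a span of 0.3, the brightest probe set per gene, a filter on level, probe sets in place of genes and a cutoff of 1.5-fold. The work used matplotlib 3.10.9, numpy 2.4.6, Python 3.11.15, statsmodels 0.14.6 and pandas 2.3.3.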

Additional observations from a re-analysis of the deposited data

How the results depend on the processing

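No paired analysis was possible because each genotype has 1 array, and no array could be left out. *Sostdc1* kept a difference of 0.78 to 0.79 under equal medians, quantile normalization and loess. It has 1 probe set, so taking the brightest could not change it. Among members, that setting could change *Wnt4* alone. Equal medians moved all genes alike, by 0.003, so neither setting checks the value of a single gene. Quantile normalization and loess moved no member by more than 0.034 and 0.037, too little to change the call of *Sostdc1*. Without genes below the array median, the members' median moved from -0.07 to 0.00 and the lower members from 8 to 4. There, lower antagonists went from 2 to 1, lower antagonists that bind Wnt from 2 to 1, lower ligands from 4 to 1, higher R-spondin genes and receptors from 1 to 0, higher other pathway genes from 1 to 0, the Frizzled median from -0.01 to 0.063 and that of the antagonists that bind LRP5/6 from 0.00 to 0.39, since 2 of 5 were left. At 1.5-fold, 1 member was higher and 0 lower. Quantile normalization and loess each gave 1 higher ligand in place of 0. Quantile normalization left 0 higher and 0 lower cytoplasmic and nuclear members, and loess left 0 lower, since both Axin genes lie beside the cutoff. The other 142 alternative values of counts, medians and *Sostdc1*, and 232 of single genes, were called alike. The bound was 1.5 times for a count and the spread of genes of like level for a single gene. For a list median it was the robust SD of the list's own differences divided by the square root of its number of genes. Probe sets near background may hide a difference, and the error of any value could not be estimated from 1 array per genotype.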
